A study of Mus musculus with 16 samples.

Results

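The 10 genes described here are core parts and outputs of the circadian clock: the period genes Per1, Per2 and Per3, the cryptochrome genes Cry1 and Cry2, the activator gene Clock, the nuclear receptor genes Nr1d1 and Nr1d2, and the output transcription factor genes Dbp and Nfil3. They were chosen by name, as the probe sets whose gene symbol in the array annotation is one of these 10. The annotation gave 18193 genes a probe set of their own; all 10 clock genes had one, and all 10 were among the 10610 genes that passed the filter on low values. A gene with several probe sets is given by its brightest one on average. R7T1, a mouse pancreatic beta-cell line, received the vehicle DMSO, the compound labelled BayK8644(2a), exendin-4, or both agents in combination, and RNA was taken after 0.5, 2, 6 and 24 h. This gave 16 arrays, 1 per treatment and time, with 4 arrays per treatment and 4 per time. BayK8644 is a dihydropyridine that opens L-type calcium channels, and exendin-4 is a peptide agonist of the GLP-1 receptor, which raises cAMP in beta cells. The labels leave the 2a unexplained and give no doses. All groups share this one cell line, and nothing says that the arrays came from separate cultures, so each p-value rests on the spread between single arrays, some or all of which may be technical. The time of sampling is time after treatment. No serum shock or other step that sets cells to a common clock phase is named in the labels, and no untreated array before treatment was analysed here.

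In the mammalian clock, the proteins CLOCK and ARNTL (BMAL1) bind E-boxes and switch on the Per, Cry, Nr1d and Dbp genes. PER and CRY proteins then return to the nucleus and repress CLOCK and ARNTL, while the NR1D proteins (REV-ERBs) repress Arntl, Clock, Cry1 and Nfil3 by binding the elements that ROR receptors activate. DBP, with its relatives TEF and HLF, activates D-box elements, and NFIL3 (E4BP4) represses the same elements. In many cells Per1 and Per2 also answer calcium and cAMP signals through CREB at cAMP response elements, and pancreatic beta cells carry a clock of their own that bears on insulin secretion.

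Levels are log2 of the deposited intensity and are compared for the same gene between arrays, never between genes. At a single time only 2 arrays with BayK8644 are set against 2 without it, so pairs can easily part through noise alone. The share of all genes whose pairs part at a single time was not computed. In bulk RNA of this kind, fewer cells that express a gene and less of its RNA per cell cannot be told apart. The beta-cell label was borne out by its markers, of which 7 of 7 were above the filter level of log2 4 on all arrays, Ins2 between 15.60 and 15.79. Markers of acinar cells (Cpa1 and Ptf1a), duct, endothelial cells and leukocytes lay under log2 4 on all arrays. Of other islet cells, the PP-cell gene Ppy (1.79 to 1.84) and the delta-cell gene Hhex were under it, while the glucagon gene Gcg ranged from 9.08 to 10.06 and the somatostatin gene Sst from 5.09 to 7.61. The acinar gene Cela1 (8.95 to 9.60) and the mesenchymal gene Vim (10.06 to 11.26) were also above it. Over all genes, the root mean square of the model's residuals grew from 0.0509 on the arrays of 0.5 h to 0.0919 on those of 24 h.

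**Figure D1:**
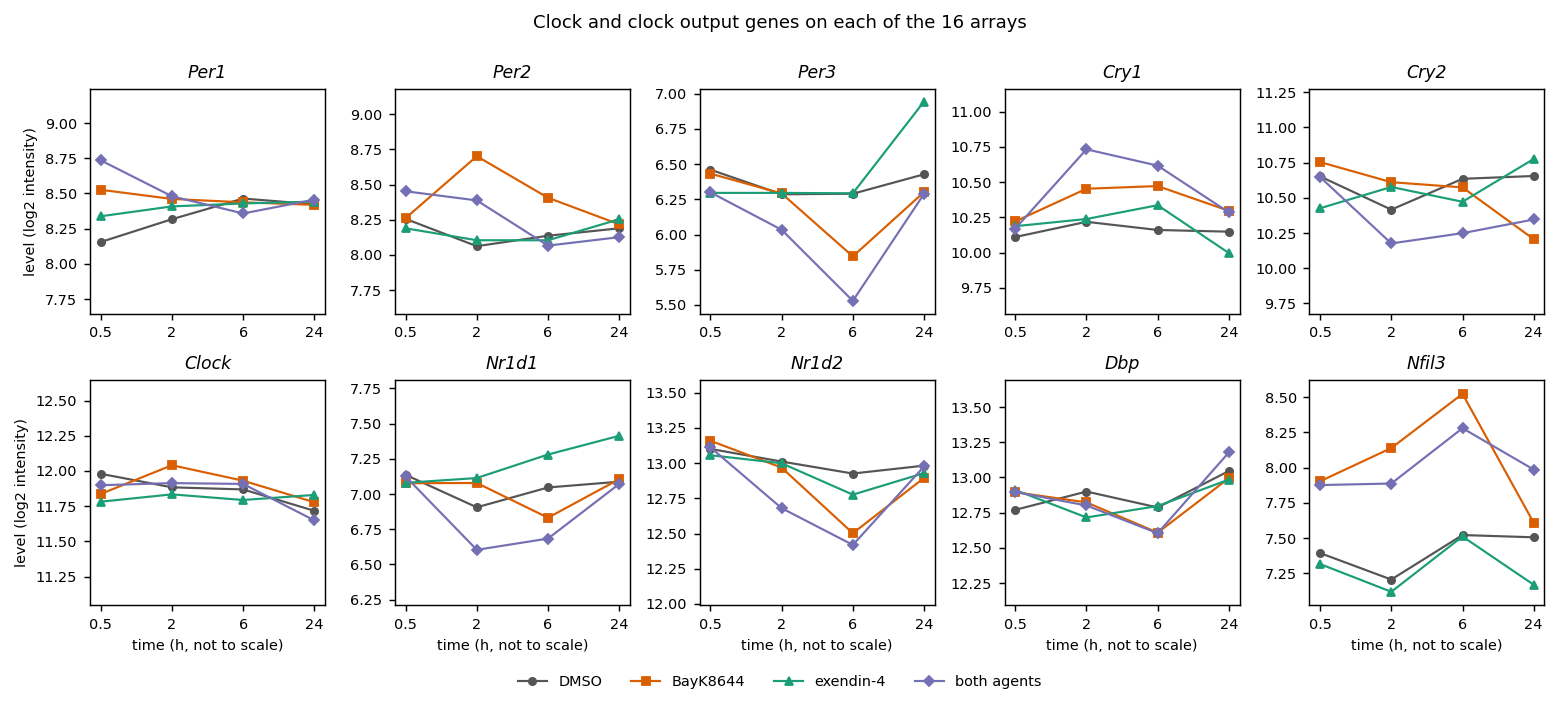
Level (log2 intensity) of the 10 clock genes on each of the 16 arrays, by time after treatment (h, spaced evenly and not to scale) and treatment (colour and marker), with 1 array per point and lines joining the arrays of a treatment. Every panel spans the same log2 range around its gene's values; Nfil3 runs from 7.12 to 7.52 on the arrays without BayK8644 and from 7.61 to 8.52 on those with it, and Per3 and Nr1d2 have their lowest points at 6 h on arrays with BayK8644.

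Clock, which encodes the DNA-binding partner of ARNTL, varied least of the 10 genes on the probe sets used, with a span of 0.39 over the 16 arrays. Its levels at 0.5, 2, 6 and 24 h were 11.98, 11.88, 11.87 and 11.72 with DMSO, and 11.84, 12.04, 11.93 and 11.78 with BayK8644. With exendin-4 they were 11.78, 11.83, 11.79 and 11.83, and with both agents 11.90, 11.91, 11.91 and 11.65. The 4 arrays of 24 h averaged 11.74 ± 0.08 (SD, n = 4) and those of 0.5 h 11.87 ± 0.09, and the groups overlapped. Clock did not pass the test in any comparison (adjusted p of 0.0946 for any difference between the times, limma). Its other probe sets above the filter did not pass either. They ran from 10.285 to 10.52, from 10.12 to 10.35 and, at the lowest signal, from 6.40 to 7.83, a wider range. On that last probe set exendin-4 over all times gave 0.44 ± 0.15 (adjusted p = 0.347, limma). The combination beyond the sum of the agents gave -0.83 ± 0.21 there (adjusted p = 0.331, limma).

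Per1, a period gene known as an early responder to calcium and cAMP signals, differed most at 0.5 h. At that time its level was 8.16 with DMSO, 8.34 with exendin-4, 8.53 with BayK8644 and 8.73 with both agents, so both arrays with BayK8644 lay above both arrays without it. At 2 h the 4 levels ran from 8.32 to 8.48, at 6 h from 8.36 to 8.46, and at 24 h from 8.42 to 8.46. As measured, the gap between treatments was thus widest at 0.5 h and nearly closed by 24 h. A BayK8644 effect differing between the times did not pass for Per1 (adjusted p = 0.561, limma). Arrays with BayK8644 were higher than those without by 0.38 ± 0.10 (log2 difference ± SE, 1.30-fold) at 0.5 h, which did not pass the test over all genes (adjusted p = 0.739). The RefSeq promoters of Per1 include one whose 250 bases before the start site (GRCm38.p6, chr11:69098699-69098948, plus strand) hold an E-box and the core of a cAMP response element. It is shown because Per1 is the member best known for early induction through such elements; capitals mark TGACG (first base at -246) and CACGTG (first base at -166).
Per1: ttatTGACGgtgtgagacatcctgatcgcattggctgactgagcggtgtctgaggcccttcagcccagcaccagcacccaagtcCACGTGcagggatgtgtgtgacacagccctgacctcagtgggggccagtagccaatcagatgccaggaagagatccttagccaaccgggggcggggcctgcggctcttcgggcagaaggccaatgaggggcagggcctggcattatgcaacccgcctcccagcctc

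Per2, the second period gene, was highest on the BayK8644 array of 2 h. Its levels in time order were 8.26, 8.06, 8.14 and 8.19 with DMSO, and 8.26, 8.70, 8.41 and 8.22 with BayK8644. With exendin-4 they were 8.19, 8.10, 8.10 and 8.25, and with both agents 8.45, 8.39, 8.07 and 8.13. At 2 h both arrays with BayK8644 (8.70 and 8.39) lay above both without it (8.06 and 8.10), whereas at 24 h the pairs overlapped. The difference at 2 h was 0.46 ± 0.14 (1.38-fold, adjusted p = 0.176), and the other 2 probe sets of Per2 above the filter gave 0.25 and 0.43 (adjusted p of 0.871 and 0.656, limma). On the last of these the arrays of 2 h were at 5.22 with BayK8644 and 4.35 with DMSO. Those with both agents and with exendin-4 were both at 4.51. Per2 did not pass the test in any comparison.

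Per3, the period gene held to be least needed for the core loop, showed dips at 6 h. With DMSO its levels were 6.46, 6.29, 6.29 and 6.43, and with exendin-4 they were 6.30, 6.30, 6.29 and 6.95. With BayK8644 they were 6.43, 6.29, 5.84 and 6.30, and with both agents 6.30, 6.03, 5.53 and 6.29. On 9 of the 16 arrays the level lay within 0.02 of the median of 6.29, so the changes come from a few arrays: those with BayK8644 at 6 h are low, and the exendin-4 array of 24 h stands alone at the top. Per3 passed the test for any difference between the times (adjusted p = 0.0420) and was higher at 24 h than at 6 h by 0.50 ± 0.13 (1.42-fold, adjusted p = 0.0227), although the groups overlapped. That call was lost without the BayK8644 array of 6 h, the exendin-4 array of 24 h, or either of the arrays with both agents at 6 and 24 h, with adjusted p-values up to 0.0950 and differences from 0.38 to 0.59. Of 6 Per3 probe sets, 3 passed the filter. On the next one by level the rise from 6 to 24 h was 0.73 ± 0.25 and did not pass (adjusted p = 0.0908). Any difference between the times did not pass there either (adjusted p = 0.122). At 6 h arrays with BayK8644 were lower than those without by 0.60 ± 0.16, which did not pass (adjusted p = 0.100); the next probe set by level gave a difference of -1.14 ± 0.38 (adjusted p = 0.279).

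The Per3 promoter (RefSeq, GRCm38.p6, chr4:151044666-151044915, minus strand) is shown because it is the only one among the members with the D-box TTATGTAA, the element at which DBP and NFIL3 act in opposite ways and whose factors are described below. It holds 2 copies, in capitals, with first bases at -205 and -158.
Per3: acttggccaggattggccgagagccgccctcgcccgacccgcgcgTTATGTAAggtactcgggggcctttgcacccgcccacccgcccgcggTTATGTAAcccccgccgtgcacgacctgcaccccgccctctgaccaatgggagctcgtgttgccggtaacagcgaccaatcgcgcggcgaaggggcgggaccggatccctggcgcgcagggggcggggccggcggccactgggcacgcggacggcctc
Of all 32851 promoters of this length in the RefSeq table, 0.819% hold this sequence on either strand. A match is a description of the letters in this window, and whether any factor binds there was not tested.

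Cry1, a cryptochrome gene whose protein is a strong repressor of CLOCK and ARNTL, was higher on arrays with BayK8644 from 2 h on. Its levels were 10.11, 10.22, 10.16 and 10.15 with DMSO, and 10.19, 10.24, 10.34 and 9.996 with exendin-4. They were 10.22, 10.45, 10.47 and 10.30 with BayK8644, and 10.17, 10.73, 10.62 and 10.28 with both agents. At 2, 6 and 24 h each array with BayK8644 lay above both arrays of the same time without it, while at 0.5 h the pairs overlapped. The arrays with both agents averaged 10.45 ± 0.27 (SD, n = 4) against 10.16 ± 0.05 with DMSO, a rise of 0.29 ± 0.08 (SE, 1.22-fold, adjusted p = 0.0389). With BayK8644 alone the difference was 0.20 ± 0.08 (adjusted p = 0.231), and for the agent at each time it was 0.36 ± 0.09 at 2 h (adjusted p = 0.0924), 0.30 ± 0.09 at 6 h (0.140) and 0.22 ± 0.09 at 24 h (0.188), none of which passed. The call for both agents held in 6 of 16 fits that left out 1 array, with differences from 0.22 to 0.36 and adjusted p-values up to 0.160; it was lost without any array of 2 or 6 h, and without the arrays of BayK8644 or of both agents at 24 h.

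Cry2, the other cryptochrome gene, gave 10.65, 10.42, 10.64 and 10.66 with DMSO and 10.43, 10.58, 10.47 and 10.78 with exendin-4. With BayK8644 its levels were 10.75, 10.61, 10.57 and 10.21, and with both agents 10.65, 10.18, 10.25 and 10.35. At 24 h both arrays with BayK8644 lay below both without it, by 0.44 ± 0.12, which did not pass the test (adjusted p = 0.0757). At 24 h Cry1 was thus measured higher and Cry2 lower on the arrays with BayK8644, and neither passed. The Cry1 promoter (RefSeq, GRCm38.p6, chr10:85185055-85185304, minus strand) is shown as the promoter of a member that passed with both agents; capitals mark the E-box CACGTG (first base at -60) and the cAMP response core TGACG (first base at -8).
Cry1: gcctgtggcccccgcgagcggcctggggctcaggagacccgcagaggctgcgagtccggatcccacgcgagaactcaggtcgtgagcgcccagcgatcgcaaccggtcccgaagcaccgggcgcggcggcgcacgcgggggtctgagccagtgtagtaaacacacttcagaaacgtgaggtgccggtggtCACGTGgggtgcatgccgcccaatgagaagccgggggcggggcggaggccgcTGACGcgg

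Nr1d1 encodes REV-ERB alpha, a haem-binding repressor. Its levels were 7.14, 6.91, 7.05 and 7.09 with DMSO, and 7.08, 7.08, 6.83 and 7.11 with BayK8644. With exendin-4 they were 7.08, 7.11, 7.28 and 7.41, and with both agents 7.12, 6.60, 6.68 and 7.07. Both arrays with BayK8644 were below both without it at 6 h, by 0.41 ± 0.18, which did not pass (adjusted p = 0.340). The level with both agents fell short of the sum of the single agents by a fitted -0.33 ± 0.15 (adjusted p = 0.736). Nr1d1 passed in no comparison.

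Nr1d2 encodes REV-ERB beta, the close relative of NR1D1 with overlapping function. In DMSO cells its levels were 13.10, 13.01, 12.93 and 12.98, and with exendin-4 they were 13.06, 13.00, 12.78 and 12.93. With BayK8644 they were 13.16, 12.97, 12.50 and 12.90, and with both agents 13.11, 12.68, 12.42 and 12.98. In every treatment 6 h was the lowest time, and the dip was deeper on the arrays with BayK8644, which at 6 h (12.50 and 12.42) did not overlap those without it (12.93 and 12.78). Nr1d2 passed the test for any difference between the times (adjusted p = 0.00653), from 13.11 ± 0.04 (SD, n = 4) at 0.5 h to 12.66 ± 0.24 at 6 h and 12.95 ± 0.04 at 24 h, and it rose by 0.29 ± 0.08 (SE) from 6 h to 24 h (1.22-fold, adjusted p = 0.0303). At 6 h it fell by 0.39 ± 0.07 with BayK8644 (0.763-fold, adjusted p = 0.0270).

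The time effect on Nr1d2 held with each array left out in turn (adjusted p up to 0.0260). The rise from 6 to 24 h was lost without the BayK8644 array or the array with both agents of either time (differences from 0.23 to 0.37, adjusted p up to 0.120). The fall with BayK8644 at 6 h was lost without any 1 array of 0.5 or 6 h (differences from -0.42 to -0.36, adjusted p up to 0.267). A further Nr1d2 probe set of lower signal gave -0.39 ± 0.19 with BayK8644 at 6 h (adjusted p = 0.467), but there the pairs overlapped, at 7.45 and 7.34 with it against 8.22 (DMSO) and 7.34 (exendin-4) without, and exendin-4 at 6 h gave -0.50 ± 0.19 (adjusted p = 0.690). On that probe set the rise from 6 to 24 h was 0.34 ± 0.11, which did not pass (adjusted p = 0.0810). The probe sets differed more in another comparison: from 0.5 h to 24 h the lower one fell by 0.60 ± 0.11 (adjusted p = 0.00283), while the higher one gave -0.16 ± 0.08 (adjusted p = 0.169).

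Dbp, a PAR-domain transcription factor gene driven by E-boxes and a common readout of clock output, was highest at 24 h in all 4 treatments. Its levels were 12.77, 12.90, 12.79 and 13.05 with DMSO, and 12.89, 12.82, 12.61 and 13.00 with BayK8644. With exendin-4 they were 12.91, 12.72, 12.80 and 12.98, and with both agents 12.90, 12.80, 12.60 and 13.18. All 4 arrays of 24 h lay above the 4 arrays of 6 h, while the lowest time was 0.5 h with DMSO, 2 h with exendin-4 and 6 h with BayK8644 and with both agents. Dbp averaged 12.70 ± 0.11 (SD, n = 4) at 6 h and 13.05 ± 0.09 at 24 h, a rise of 0.35 ± 0.06 (SE, 1.28-fold, adjusted p = 0.00197). This rise passed in all 16 fits without 1 array (0.30 to 0.40, adjusted p up to 0.0117), and a further Dbp probe set gave 0.31 ± 0.05 (adjusted p = 0.00247). From 0.5 h to 24 h Dbp rose by 0.18 ± 0.06 (1.14-fold, adjusted p = 0.0462), a call that held in 5 of 16 such fits (0.13 to 0.21, adjusted p up to 0.174).

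Nfil3 encodes the D-box repressor that opposes DBP, and it had the clearest response to BayK8644 of the 10 genes. With DMSO its levels were 7.39, 7.21, 7.52 and 7.51, and with exendin-4 they were 7.32, 7.12, 7.51 and 7.17. With BayK8644 they were 7.90, 8.14, 8.52 and 7.61, and with both agents 7.88, 7.89, 8.28 and 7.99. All 8 arrays with BayK8644 (7.61 to 8.52, median 7.94) lay above all 8 without it (7.12 to 7.52, median 7.35), the only one of the 10 genes for which this was so. The same held for 0.245% of all genes tested, and 0.0943% had all 8 arrays lower. Averaged over the times, Nfil3 was 8.04 ± 0.39 (SD, n = 4) with BayK8644 against 7.41 ± 0.14 with DMSO, a rise of 0.64 ± 0.12 (SE, 1.56-fold, adjusted p = 0.0266), and with both agents it rose by 0.60 ± 0.12 (1.52-fold, adjusted p = 0.0165).

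Taken by time, the 2 arrays with BayK8644 exceeded the 2 without it by 0.54 ± 0.17 at 0.5 h (1.45-fold, adjusted p = 0.99996), 0.85 ± 0.17 at 2 h (1.80-fold, 0.0418), 0.89 ± 0.17 at 6 h (1.85-fold, 0.0289) and 0.46 ± 0.17 at 24 h (1.38-fold, 0.146). Nfil3 thus rose at 2 and 6 h, and the values at 0.5 and 24 h were also higher but did not pass. Whether the BayK8644 effect differed between the times was tested directly and did not pass (adjusted p = 0.783). At 24 h the array with BayK8644 alone (7.61) was only 0.10 above its DMSO array, while the array with both agents was 0.82 above its exendin-4 array. The rise over all times was lost without the DMSO or BayK8644 array of 2 or 6 h (0.55 to 0.78, adjusted p up to 0.146). The calls at 2 and 6 h were lost without any 1 array of 0.5, 2 or 6 h (differences from 0.77 to 0.93 and from 0.77 to 1.003, adjusted p up to 0.365 and 0.301). The rise with both agents was lost without the DMSO array of 2 or 6 h or the array with both agents of 2, 6 or 24 h (0.53 to 0.70, adjusted p up to 0.0760).

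**Figure D2:**
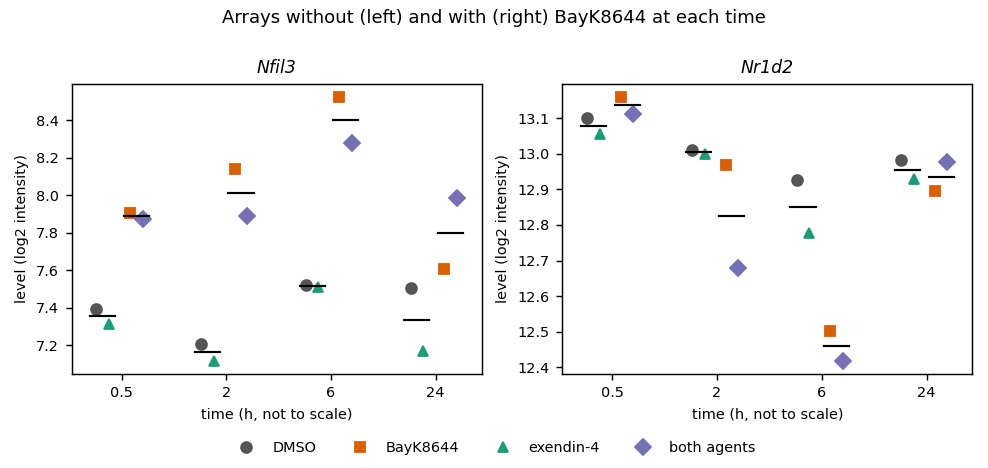
Levels (log2 intensity) of Nfil3 and Nr1d2 at each time after treatment (h, not to scale), the 2 arrays without BayK8644 on the left and the 2 with it on the right of each time; each point is 1 array and each bar the mean of 2. For Nfil3 the arrays with BayK8644 lie higher at every time, and for Nr1d2 the pairs part at 6 h, at 12.50 and 12.42 with BayK8644 against 12.93 and 12.78 without.

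The Nfil3 promoter (RefSeq, GRCm38.p6, chr13:52981040-52981289, minus strand) is shown as that of the member with the clearest response; both motifs lie on the opposite strand, so the capitals read CGTCA for the cAMP response core TGACG (first base at -59) and TGACCTA for the ROR core TAGGTCA (first base at -12), the element that NR1D receptors repress.
Nfil3: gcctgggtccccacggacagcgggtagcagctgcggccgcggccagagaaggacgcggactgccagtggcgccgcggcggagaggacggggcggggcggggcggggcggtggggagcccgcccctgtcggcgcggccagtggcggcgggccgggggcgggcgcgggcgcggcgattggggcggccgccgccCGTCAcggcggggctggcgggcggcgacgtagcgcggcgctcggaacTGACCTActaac
The letters searched, on both strands, were CACGTG (E-box, in 6.02% of the 32851 promoters), TGACGTCA (full cAMP response element, 1.55%), TGACG (its core, also contained in the full element, 17.8%), TTATGTAA (D-box) and TAGGTCA (ROR core, 2.23%). Of the 10 genes, 9 had a promoter in the RefSeq table, and Per2 did not. A gene was counted as holding a motif if any of its promoters did, whereas the shares given are of single promoters. Per1 and Cry1 held the E-box, Per1, Cry1, Cry2 and Nfil3 the TGACG core, Nfil3 the ROR core, and 0 of the 9 the full element. The core is thus common among promoters at large, and the positions say nothing of whether CREB or a nuclear receptor bound there in these cells.

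Any difference between the 4 times passed for 4 of 10 (Per3, Cry1, Nr1d2 and Dbp), while 29.6% of all genes tested passed, so the share among the clock genes is near that of the array as a whole. The calls for Nr1d2 and Dbp held in all 16 fits without 1 array, that for Cry1 in 8 and that for Per3 in 3 (adjusted p up to 0.0695 and 0.129). Cry1, with an adjusted p of 0.0337, averaged 10.17 ± 0.05 (SD, n = 4) at 0.5 h, 10.41 ± 0.24 at 2 h, 10.40 ± 0.20 at 6 h and 10.18 ± 0.14 at 24 h. At 2 h its 2 arrays with BayK8644 (10.45 and 10.73) lay above the 2 without (10.22 and 10.24), as they did at 6 h. From 6 to 24 h 3 of 10 rose (Per3, Nr1d2 and Dbp) and 1 fell (Nfil3, by 0.39 ± 0.12, adjusted p = 0.0435), against 6.76% of all genes higher and 6.42% lower. The Nfil3 fall held in 5 of 16 fits without 1 array (differences from -0.49 to -0.25, adjusted p up to 0.157). These tests average over the treatments. Nfil3 went from 7.52 to 7.51 with DMSO and from 7.51 to 7.17 with exendin-4. With BayK8644 it went from 8.52 to 7.61, and with both agents from 8.28 to 7.99. Nr1d2 went from 12.93 to 12.98 with DMSO and from 12.78 to 12.93 with exendin-4. With BayK8644 it went from 12.50 to 12.90, and with both agents from 12.42 to 12.98. A BayK8644 effect differing between the times passed for neither gene (adjusted p of 0.783 and 0.281, limma). Dbp alone among the 10 had all 4 arrays of 24 h above those of 6 h, as did 5.74% of all genes, and 0 of 10 had all 4 below (5.9% of all genes). The median difference of the 10 genes was 0.02, beside 0.00 over all genes.

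Between the other times few clock genes passed. From 0.5 to 2 h 0 of 10 passed, with 2.05% of all genes higher and 2.64% lower. An unadjusted p under 0.05 was found for 2 of 10, beside 2308 of all 10610 genes. From 2 to 6 h 0 of 10 passed, beside 0.405% of all genes, with 2 of 10 and 1524 of all 10610 genes under an unadjusted 0.05. From 0.5 to 24 h 1 of 10 rose (Dbp) and 0 fell, although 10.6% of all genes rose and 13% fell. For 9 of the 10 clock genes the difference between 0.5 and 24 h did not pass this test, which does not show that their levels were equal. The lower Nr1d2 probe set fell over this interval by 0.60 ± 0.11 (adjusted p = 0.00283, limma). Of the 17 other clock genes described below, 3 rose and 6 fell.

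BayK8644 over all times raised 1 of 10 (Nfil3) and lowered 0, with 0.481% of all genes higher and 0.358% lower. At 0.5 h 0 of 10 passed (0.217% of all genes), and Per1 and Nfil3 were among the 218 of 10610 genes with an unadjusted p under 0.05. At 2 h 1 rose (Nfil3; 1.15% of all genes higher, 0.481% lower), and at 6 h 1 rose and 1 fell (Nfil3 and Nr1d2; 1.71% higher, 0.773% lower). At 24 h 0 of 10 passed, with 2.99% of all genes higher and 2.12% lower, and 4 of 10 had an unadjusted p under 0.05, as did 2386 of all 10610 genes. The BayK8644 effect differed between the times for 0 of 10 and for 0.622% of all genes; Nr1d2 came closest (adjusted p = 0.281). At 6 h the values of Per3, Nr1d1, Nr1d2, Dbp (-0.19 ± 0.07, adjusted p = 0.266), Cry2 (-0.14) and Per1 (-0.05) were lower with BayK8644. Those of Nfil3, Cry1 (0.30), Per2 (0.12) and Clock (0.09) were higher, and only Nr1d2 and Nfil3 passed. An unadjusted p under 0.05 was found for 4 of 10 at 2 h and 5 of 10 at 6 h, beside 1273 and 1586 of all 10610 genes.

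Some markers of other cell types were also measured higher with BayK8644. Sst was between 5.09 and 5.14 on the 8 arrays without BayK8644 and between 5.10 and 7.61 on the 8 with it, at 5.41 and 6.08 at 6 h and 7.37 and 7.61 at 24 h. Hhex, another delta-cell marker, was under log2 4 on all arrays, and the summed delta list followed Sst, with 5.23 to 5.28 without and 5.24 to 7.64 with BayK8644. The summed mesenchymal list ran from 10.07 to 10.28 without and from 10.28 to 11.27 with BayK8644, nearly all of it Vim, as Col1a1 and Col3a1 were under log2 4. The summed alpha list, of which Gcg and Irx2 were measured, ran from 9.16 to 9.74 and from 9.61 to 10.09. The acinar list overlapped, at 8.97 to 9.54 and 9.02 to 9.61, as did the beta-cell list, at 17.34 to 17.51 and 17.39 to 17.50. The part of these genes' cells in the clock gene values was not tested. At 0.5 and 2 h Sst lay between 5.10 and 5.45 with and between 5.09 and 5.12 without BayK8644, Vim between 10.26 and 10.62 and between 10.14 and 10.26, and Gcg between 9.59 and 9.95 and between 9.57 and 9.70.

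**Figure D3:**
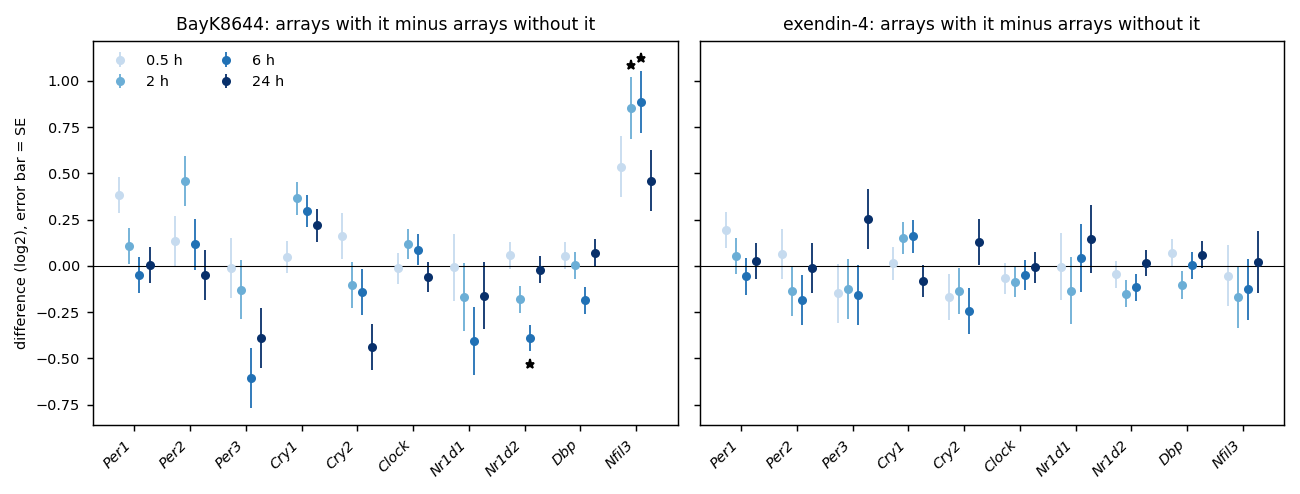
Difference in level (log2, arrays with the agent minus arrays without it, error bar 1 SE from the model) for each clock gene at 0.5, 2, 6 and 24 h, with BayK8644 on the left and exendin-4 on the right. Stars mark the 3 differences that passed an adjusted p of 0.05: Nfil3 with BayK8644 at 2 and 6 h and Nr1d2 with BayK8644 at 6 h; the exendin-4 differences run from -0.24 to 0.25.

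No clock gene passed a test of exendin-4. Over all times 0 of 10 passed, and neither did any other gene (0% of all genes by limma; 698 genes, 0 of them among the 10, had an unadjusted p under 0.05). At single times 0 of 10 passed, with 0.00943% of all genes at 0.5 h, 0.0189% at 2 h, 0% at 6 h and 0% at 24 h, and an effect differing between times passed for 0 of 10 and 0.00943% of all genes. The unadjusted p-values of the 10 genes were all above 0.05 at each time. The differences over all times ran from -0.13 ± 0.12 for Nfil3 to 0.18 ± 0.10 for Nr1d1 (adjusted p of 0.886 and 0.820). At 24 h the exendin-4 array was the highest of its time for 5 of the 10 genes, Per2 (8.25), Per3 (6.95), Cry2 (10.78), Clock (11.83) and Nr1d1 (7.41), where the array with both agents was at 8.13, 6.29, 10.35, 11.65 and 7.07. For Per2 the BayK8644 array was close, at 8.22. This is a description of 1 array. The share of all genes highest on it was not computed, so the count cannot be read as a pattern.

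The combination changed 2 of 10 relative to DMSO over all times, Cry1 and Nfil3, both upward, with 4.38% of all genes higher and 2.59% lower. An effect of the combination beyond the sum of the agents passed for 0 of 10 and 0% of all genes; 710 genes, 1 of them a clock gene (Nr1d1), had an unadjusted p under 0.05. The 3 comparisons with DMSO share the same 4 DMSO arrays. Nfil3 differed from DMSO by 0.64 with BayK8644, -0.13 with exendin-4 and 0.60 with both, and Cry1 by 0.20, 0.03 and 0.29. Per3 (-0.15, 0.09 and -0.33) and Nr1d2 (-0.12, -0.07 and -0.21) were lowest with both agents, which did not pass (adjusted p of 0.126 and 0.115). On the lower Nr1d2 probe set the differences from DMSO were -0.34 ± 0.11 with BayK8644 (adjusted p = 0.200), -0.48 ± 0.11 with exendin-4 (0.219) and -0.47 ± 0.11 with both agents (0.0380), so only the last passed there. The median over the 10 genes was 0.01 with BayK8644 and -0.01 with both agents, beside -0.01 and 0.02 over all genes.

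A further list of clock genes, other than the 10, was set by name. Of the 21 analysed here, 17 passed the filter, and Bhlhe41, Npas2, Rorb and Fbxl21 lay under it. Among the 17, 8 passed for any difference between the times (29.6% of all genes): Arntl, Bhlhe40, Tef, Tipin, Btrc, Usp2, Noct and Wee1. The Wee1 call held in 4 of 16 fits without 1 array, that for Btrc in 9, for Arntl in 13 and for Noct in 15, the others in all 16, and the calls for Tef and Btrc were lost with the gene's second probe set. Between 0.5 and 24 h 3 of 17 rose and 6 fell (10.6% and 13% of all genes). Between 6 and 24 h 1 rose and 1 fell (6.76% and 6.42%), between 0.5 and 2 h 1 rose and 0 fell (2.05% and 2.64%), and between 2 and 6 h 0 passed (0.405%). With both agents 1 rose and 1 fell (4.38% and 2.59% of all genes), with BayK8644 at 24 h 0 rose and 3 fell (2.99% and 2.12%), and in the other comparisons with an agent 0 of 17 passed. The 3 calls with BayK8644 at 24 h (Rora, Csnk1d and Wee1) were lost when each time was given its own array weight.

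Among the activators, Arntl (BMAL1), the partner of CLOCK, was at 7.78, 7.76, 8.03 and 7.74 with DMSO, 7.85, 7.74, 8.16 and 7.52 with BayK8644, 7.68, 7.52, 7.78 and 7.78 with exendin-4, and 7.81, 7.78, 8.43 and 7.41 with both agents. It was highest at 6 h in 3 of the 4 treatments. Nr1d2 was lowest at 6 h, only RNA was measured, and a link between the levels of these genes was not tested. From 6 to 24 h Arntl fell by 0.49 ± 0.12 (adjusted p = 0.0160), a call lost without the BayK8644 array or the array with both agents of either time (-0.61 to -0.37, adjusted p up to 0.0664). Rora, which encodes a receptor that activates the elements NR1D proteins repress, fell by 0.50 ± 0.11 with BayK8644 at 24 h (adjusted p = 0.0359), to 8.14 and 8.05 with it against 8.56 and 8.62 without. The call was lost with the gene's second probe set and with the mean of its probe sets. It was also lost without the arrays of 0.5, 2 or 6 h, though its direction did not reverse. That call held in 2 of 16 fits without 1 array (-0.57 to -0.42, adjusted p up to 0.240).

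Bhlhe40 (DEC1), a repressor that competes for E-boxes and is induced by many signals, had the largest difference of the 17 from 0.5 to 2 h. It was at 8.31, 8.98, 8.96 and 9.12 with DMSO, 8.69, 10.15, 9.09 and 9.42 with BayK8644, 8.45, 9.43, 8.81 and 8.99 with exendin-4, and 8.96, 9.68, 9.21 and 9.58 with both agents. It rose in all treatments, DMSO included, from 0.5 to 2 h, by 0.96 ± 0.13 (1.95-fold, adjusted p = 0.00289), and this passed with each array left out (0.80 to 1.10, adjusted p up to 0.0146). With both agents it rose by 0.51 ± 0.13 over all times (adjusted p = 0.0324), a call lost without the DMSO array or the array with both agents of 2, 6 or 24 h (0.38 to 0.61, adjusted p up to 0.112).

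Tef, a PAR-domain relative of Dbp, resembled it in time: 10.46, 10.62, 10.52 and 10.69 with DMSO, 10.42, 10.39, 10.31 and 10.62 with BayK8644, 10.46, 10.64, 10.54 and 10.90 with exendin-4, and 10.49, 10.35, 10.19 and 10.63 with both agents. All 4 arrays of 24 h lay above those of 6 h, a rise of 0.32 ± 0.06 (adjusted p = 0.00484) that passed with each array left out (adjusted p up to 0.0259). A further Tef probe set did not pass it (adjusted p = 0.0734), and for 0.5 to 24 h, where the higher one rose by 0.25 ± 0.06 (adjusted p = 0.0128), it gave -0.01. Hlf, the other relative, ran from 7.96 to 8.63 and did not pass in any comparison.

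Usp2, a deubiquitinase that acts on clock proteins and is itself a clock output, fell by 1.71 ± 0.24 (0.306-fold, adjusted p = 0.000157) from 0.5 to 24 h. Its levels were 6.11, 5.28, 5.14 and 5.35 with DMSO, 6.53, 5.19, 4.84 and 4.41 with BayK8644, 5.82, 5.43, 5.399 and 4.15 with exendin-4, and 6.30, 5.49, 5.34 and 4.03 with both agents. The 3 arrays of 24 h with an agent lay near the filter level of log2 4, where the size of a change depends in part on the background of the method. Over the same interval Tipin, a replication fork gene often listed with Timeless, fell by 0.24 ± 0.04 (adjusted p = 0.000360). Wee1, a mitotic kinase gene with E-boxes, fell by 0.31 ± 0.09 (adjusted p = 0.0206), a call lost without the BayK8644 array or the array with both agents of 0.5 or 24 h (-0.42 to -0.25, adjusted p up to 0.0867). It also fell with BayK8644 at 24 h, by 0.35 ± 0.07 (adjusted p = 0.0213), to 11.19 and 11.12 with it against 11.54 and 11.45 without; the second call was lost without either of the exendin-4 and combination arrays of 24 h (adjusted p up to 0.111). The casein kinase gene Csnk1d, whose product phosphorylates PER proteins, fell by 0.28 ± 0.06 with BayK8644 at 24 h (adjusted p = 0.0304) and by 0.23 ± 0.05 with both agents (adjusted p = 0.0263). Those calls held in 6 and in 10 of 16 fits without 1 array, and not with the gene's next probe set (adjusted p of 0.915 and 0.956).

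The calls from 0.5 to 24 h not yet given were small. Csnk1e (-0.23 ± 0.07, adjusted p = 0.0238), Noct (-0.17 ± 0.05, adjusted p = 0.0281) and Fbxw11 (-0.17 ± 0.05, adjusted p = 0.0339) fell, and Btrc rose by 0.29 ± 0.09 (adjusted p = 0.0375). Csnk1e encodes another kinase of PER proteins, Noct a deadenylase-like clock output, and Fbxw11 and Btrc the ubiquitin ligase subunits that mark PER proteins for breakdown. For Btrc the next probe set gave -0.38, so its direction depended on the probe set, and the Fbxw11 call was lost when the arrays were shifted to one median. Calls for these 4 genes were lost without 3 to 6 of the 16 single arrays, with adjusted p-values up to 0.150. All 4 calls were also lost when each time was given its own array weight.

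**Figure D4:**
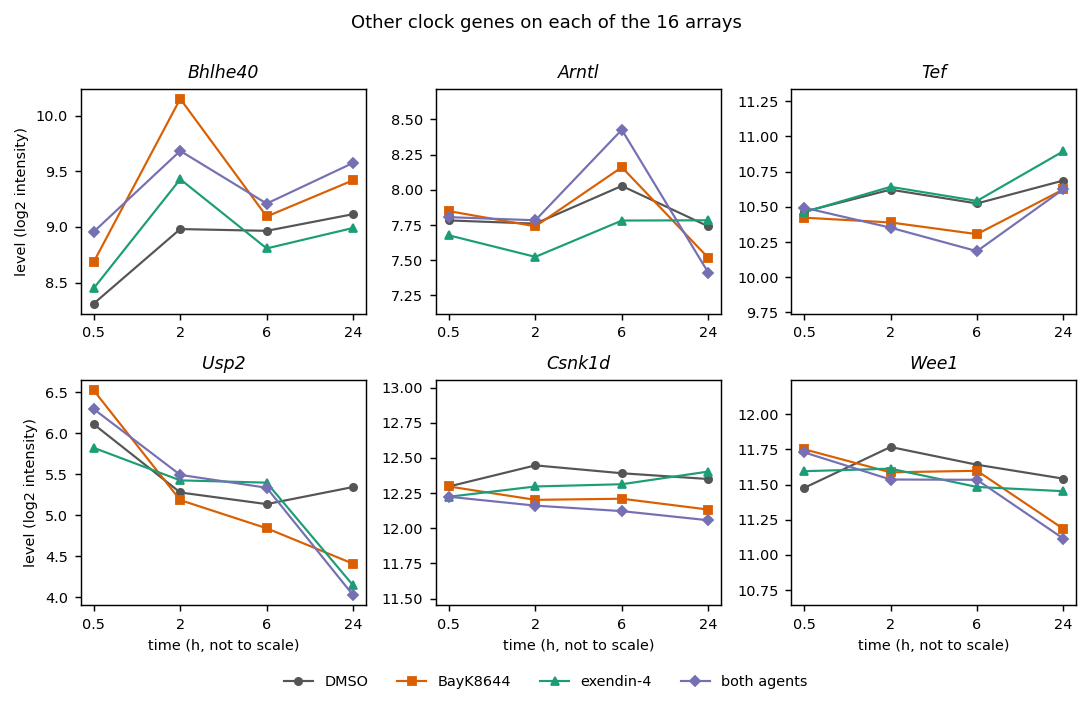
Level (log2 intensity) of 6 other clock genes on each of the 16 arrays, by time after treatment (h, not to scale) and treatment, with 1 array per point and lines joining the arrays of a treatment; the vertical ranges differ between panels. Bhlhe40 is higher at 2 h than at 0.5 h in all 4 treatments. Arntl is highest at 6 h with DMSO, with BayK8644 and with both agents. Usp2 falls from 5.82 to 6.53 at 0.5 h to 4.03 to 5.35 at 24 h.

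Of the 10 genes, Per3 and Nfil3 spanned at least 1 log2 unit over the arrays (1.42 and 1.41), and the genes most like them were named by Pearson's correlation across the 16 arrays, which share their cell line, times and treatments. For Nfil3 these were Dynll1 (r = 0.856), Zc3h10 (0.849) and Bmp2 (0.845). For Per3 they were Dlg5 (0.893), D430042O09Rik (0.885) and Klhl32 (0.880). These values are descriptions with no test, the highest among 10610 genes.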

How the data were processed

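Total RNA from R7T1 cells was labelled with biotin after a standard Affymetrix single amplification and hybridised to 1 array per treatment and time, per the labels' protocols. The authors deposited linear intensity values for 45101 probe sets. The submitters' processing notes name GCRMA, with no version given in the sources used here. GCRMA corrects background by probe sequence, and low values gather near its background. Log2 of each intensity was used as it stood, unscaled. Probe sets with 1 gene symbol (34945; 932 had several, 9211 none, 64 were controls) were kept where log2 reached 4 (an intensity of 16) on at least 2 arrays (19204), and the one with the highest mean stood for its gene, which left 10610 genes. Models were fitted with limma 3.58.1 in R 4.3.3 (lmFit, eBayes with an intensity trend), with Benjamini-Hochberg adjustment over these genes and a threshold of 0.05. One model held time and treatment (9 residual degrees of freedom), in which a treatment's 4 times serve as its replicates. Another had a term per agent and time, the 2 arrays with it against the 2 without it, took the agents' effects to add and pooled the error over the times (4 residual degrees of freedom). As its residuals grew from 0.0509 at 0.5 h to 0.0919 at 24 h, the pooled SE may be too large at 0.5 h and too small at 24 h. Both were run on simulated data with independent errors and a BayK8644 effect that was constant over time. Only BayK8644 over all times, BayK8644 at 6 h and exendin-4 over all times were checked there, and tests between times were not. The number of arrays limits the precision. Labels carry no replicate numbers. The 10 genes, the lists, the motifs and the rule for named genes (all 10; of the other clock genes those that passed, those below the filter and those that define the list; the 3 genes most correlated with each of the 10 that spans at least 1 log2 unit) were chosen with earlier results of these data known. Alternatives were another scaling, a pseudocount of 16, other filters (none, log2 of 6), other ways to choose a probe set, no intensity trend, array weights, and leaving out each array or time; the second-highest probe set of each gene that passed was added after seeing the data.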

Additional observations from a re-analysis of the deposited data

Results flagged for a closer look

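Within each treatment, the 4 arrays of a gene differ in time, and 4 of 40 such groups (10 genes, 4 treatments) held an array that stands far from the other 3 by Dixon's test; chance alone marks about 1 in 20 groups. Per3 was at 6.95 on the exendin-4 array of 24 h, with the others at 6.29 to 6.30. Cry2 was at 10.42 on the DMSO array of 2 h, with the others at 10.64 to 10.66. Clock was at 11.65 on the 24 h array with both agents, with the others at 11.90 to 11.91. Nr1d1 was at 6.83 on the BayK8644 array of 6 h, with the others at 7.08 to 7.11.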

How the results depend on the processing

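The labels carry no replicate numbers; arrays of the same time were matched through the time term of the models. Each of the 15 calls among the 10 genes was refitted under alternatives other than leaving out 1 array: 127 of 158 fits kept the call, 31 lost it, and 0 reversed its direction. Of 240 fits without 1 array, 138 kept it. For the 25 calls among other clock genes, 223 of 263 fits kept the call, 37 lost it and 3 reversed, all from 0.5 to 24 h: Tef with its second probe set (-0.00735), and Btrc with the mean of its probe sets (-0.0452) and with its second probe set (-0.376). Fewer of the 10 genes passed with no filter: 2 for any time difference and 2 for 24 against 6 h (4 each in the report), 0 for 24 against 0.5 h, 0 for BayK8644 over all times, 1 for both agents, 0 for BayK8644 at 2 h and 1 at 6 h; more genes were then tested. Testing every probe set gave 0 for 24 against 0.5 h, BayK8644 over all times, at 2 h and at 6 h, and the mean of probe sets 2, not 1, for 24 against 0.5 h, 0 for BayK8644 at 2 h and 1 at 6 h. Without the intensity trend 0 passed for 24 against 0.5 h and for BayK8644 at 2 and 6 h, and 1 for both agents. Array weights gave 2 for 6 against 2 h, 0 for 24 against 0.5 h and 4 for both agents. Without the arrays of 0.5 h 0 passed for BayK8644 at 2 and 6 h. Without those of 2 h the counts were 1 for 24 against 6 h, 0 for 24 against 0.5 h, 0 for BayK8644 over all times, 0 for both agents, 1 for BayK8644 at 6 h and 1 at 24 h. Without those of 6 h they were 0 for BayK8644 over all times, 0 for both agents and 0 for BayK8644 at 2 h, and without those of 24 h 1 for both agents. With 1 array left out, counts ranged from 2 to 5 for any time difference, 1 to 5 for 24 against 6 h, 0 to 2 for 24 against 0.5 h, 0 to 1 for BayK8644 over all times, 0 to 3 for both agents, 0 to 1 for BayK8644 at 2 h, 0 to 3 at 6 h and 0 to 1 at 24 h. The scaling, the pseudocount and the stricter filter moved no count by over 1.5 times. Where fits differ, the cause was not tested.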
